A study of Sus scrofa with 36 samples.

Results

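The interferon response was followed through 9 genes of the pig: the sensor gene IFIH1, the interferon regulatory factor genes IRF1, IRF3, IRF7 and IRF9, the signal transducer gene STAT2, the antiviral genes ISG15 and MX1, and B2M. They were chosen by name as genes of this response, with earlier results of these data known. All 9 were found among the 20683 genes of the deposited tables, and all 9 passed the filter on low counts in each model fit. The cells compared were fibroblasts, undifferentiated induced pluripotent stem cells (iPSCs) and the cells into which iPSCs were differentiated.

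Cells detect viral double-stranded RNA with cytosolic sensors such as MDA5, the product of IFIH1, and pass the signal to IRF3 and IRF7, which switch on type I interferon genes. Secreted interferon binds a receptor whose kinases, JAK1 and TYK2, activate STAT proteins, STAT2 among them. STAT2 joins IRF9 in a complex called ISGF3 that switches on interferon-stimulated genes, among them ISG15, MX1, IFIH1 and IRF7 themselves. IRF1 is induced mainly by interferon gamma and turns on genes of antigen presentation. B2M encodes beta-2-microglobulin, the light chain without which MHC class I molecules do not reach the cell surface. In mouse and human, pluripotent stem cells are known for a weak response to interferon, and fibroblasts for a strong one.

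Bulk RNA-seq came from 36 libraries in 11 groups, all from pig (Sus scrofa) cells. Fibroblasts (n = 4) were profiled beside undifferentiated iPSC lines in 15 of them: clone 1 (n = 3), clone 2 (n = 4) and clone 3 (n = 4), called transgene-free in the series title. The labels give clone 1 as PiPS-EP1 minusPD c4 p11, clone 2 as PiPS-EP5 minusPD minusA83 c12 p10 and clone 3 as PiPS-EP5 minusPD minusA83 c18 p15. The other 21, with n = 3 per group, all came from the single line clone 8. It was sampled undifferentiated on day 0 with its MEF feeder layer removed, on day 1 as mesendoderm after the medium E8A100ch3, on day 2 as presomitic mesoderm (PSM) after S1LDN and on day 3 as somite after S2LDN. Endothelial cells were taken on day 6, beating cardiomyocytes on day 9 and neural progenitors on day 24. Each iPSC group is thus 1 line, and the labels mention feeder removal for day 0 of clone 8 alone. No label says whether the libraries of a group were separate cultures, so p-values measure the spread between these libraries, which may be technical.

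Total estimated counts per library ranged from 1845333 to 69879325, with 24314241 or more in clones 1 to 3 and at most 9727315 in clone 8. Fibroblast depth was 36738189 and 26120236 counts for libraries 1 and 2 but 7508792 and 6877298 for libraries 3 and 4. The markers of 2 libraries went against their labels. The library labelled cardiomyocyte 2 held 4.28 TPM (a level scaled to transcript length and to library total) of the cardiac troponin gene TNNT2 and 254 TPM of the neural gene PAX6, against 4380.2 and 4409 TPM of TNNT2 in cardiomyocyte 1 and 3. The library labelled neural progenitor 1 held 5155 TPM of TNNT2 and 0.19 TPM of PAX6, against 359.6 and 339 TPM of PAX6 in neural progenitor 2 and 3. Both stayed in the groups their labels give, and tests of members against those groups are given with and without them. They also widen the spread that the clone 8 fit shares over all its groups: between day 1 and day 0, 12.7% of 14248 genes passed with them and 37.4% of 14485 without them. In bulk RNA, fewer cells of a type and less RNA per cell cannot be told apart.

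All 9 genes were lower in clones 1 to 3 than in fibroblasts (11 libraries, equal weight per clone; adjusted p under 0.05 in edgeR's quasi-likelihood test over 14660 genes). In that comparison 35.9% of all genes were lower and 74.6% differed in either direction, so the count stands against a high background. The median over the 9 was -2.60 on the log2 scale against 0.11 over all genes tested. ISG15, MX1, IRF9 and IFIH1 were lower in each of the 32 other libraries than in any fibroblast library. IRF3 and B2M were lower in 31 of 32, STAT2 and IRF7 in 29 of 32 and IRF1 in 18 of 32.

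IFIH1, the sensor, lies on chromosome 15, 68930998 to 68985145 of Sscrofa11.1, the build of all positions given here. Its level was 11.4, 7.86, 13.1 and 8.83 TPM in fibroblast libraries 1 to 4. In the clones it was 0.64, 0.75 and 0 TPM (clone 1), 0.42, 0.14, 0.58 and 0.49 TPM (clone 2) and 0, 0.3, 0.25 and 0.16 TPM (clone 3), so no clone library came near a fibroblast library. The log2 fold change between clones and fibroblasts was -5.13 ± 0.57, adjusted p = 2.76e-07, a 35.1-fold lower level. On day 0 of clone 8 IFIH1 had 3 counts in all 3 libraries together (0, 0.16 and 0.08 TPM). Relative to library size, fibroblasts held 114 times as much (95% counting interval 38.9 to 554, which covers counting error only).

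IRF3, the factor that the sensors activate and that most cells hold ready, lies on chromosome 6, 54701733 to 54706079. Fibroblasts held 55.1, 59.8, 38.5 and 46.3 TPM. The clones held 19.4, 10.4 and 9.06 TPM (clone 1), 16.9, 16.1, 17.96 and 17.6 TPM (clone 2) and 12.8, 12.1, 13.7 and 12.3 TPM (clone 3), again without overlap. The log2 fold change was -1.93 ± 0.19, adjusted p = 6.72e-08. IRF7, its interferon-inducible partner on chromosome 2, 372235 to 375572, was low everywhere. It stood at 7.54, 7.54, 7.07 and 4.92 TPM in fibroblasts, at 0, 0 and 1.45 TPM in clone 1, at 2.02, 3.4, 5.05 and 2.19 TPM in clone 2 and at 0.92, 2.03, 1.71 and 1.56 TPM in clone 3. One clone 2 library lay within the fibroblast range and 2 clone 1 libraries had no count, and the log2 fold change was -2.60 ± 0.62, adjusted p = 0.00109.

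STAT2 and IRF9, subunits of ISGF3, differed from fibroblasts by unlike amounts. STAT2 (chromosome 5, 21733030 to 21748960) stood at 23.7, 20, 18.1 and 23.3 TPM in fibroblasts. It stood at 5.4, 8.82 and 7.88 TPM in clone 1, 9.15, 9.75, 8.88 and 7.36 TPM in clone 2 and 7.72, 7.94, 7.52 and 8.44 TPM in clone 3, all below the fibroblasts, with a log2 fold change of -1.56 ± 0.14, adjusted p = 1.2e-08. IRF9 (chromosome 7, 75133800 to 75139641) stood at 105, 104, 59.8 and 67.7 TPM in fibroblasts and at 0, 5.29 and 4.5 TPM in clone 1. It stood at 4.19, 2.83, 4.54 and 4.18 TPM in clone 2 and at 2.2, 1.36, 2.09 and 2.49 TPM in clone 3. Clone 1 replicate 2 had no IRF9 count at all. The difference was 31.2-fold (log2 -4.96 ± 0.43, adjusted p = 1.19e-08), against 2.94-fold for STAT2.

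IRF1 (chromosome 2, 134776122 to 134783646) was the member whose groups lay closest together. Fibroblasts held 11.8, 5.73, 9.86 and 7.84 TPM. Clone 1 held 8.58, 2.0 and 5.17, clone 2 4.35, 6.24, 6.61 and 3.9 and clone 3 3.5, 2.88, 2.67 and 3.37 TPM, so clones 1 and 2 reached into the fibroblast range. The log2 fold change was -1.12 ± 0.30, adjusted p = 0.00298. Over all 11 groups every pair of neighbours in the order of IRF1 means overlapped (10 of 10), as they did for IRF7, from somite (highest, 11.3 ± 3.35 TPM, SD, n = 3) to clone 3 (lowest, 3.105 ± 0.394 TPM, n = 4).

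The effector genes were abundant in fibroblasts. ISG15, a ubiquitin-like protein that is attached to other proteins after infection (chromosome 6, 63363201 to 63364211), stood at 202, 223, 81.3 and 84.1 TPM. Libraries 1 and 2 were well above libraries 3 and 4, the shallower pair. The clones held 33.8, 26.5 and 35.2 TPM (clone 1), 10.4, 8.46, 15.1 and 21.7 TPM (clone 2) and 20.04, 25.5, 16.03 and 14.6 TPM (clone 3), none of them near the fibroblasts (log2 -2.90 ± 0.28, adjusted p = 3.63e-08). MX1, a dynamin-like GTPase that blocks influenza and other viruses (chromosome 13, 204843049 to 204868927), stood at 147, 155, 185 and 167 TPM in fibroblasts. It stood at 42.04, 46.6 and 41.2 TPM in clone 1, 36.9, 33.3, 35.5 and 25.9 TPM in clone 2 and 34.2, 32.2, 33.5 and 36.2 TPM in clone 3. That is a 4.86-fold lower level (log2 -2.28 ± 0.09, adjusted p = 2.83e-13), with clone libraries that all lay between 25.9 and 46.6 TPM.

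B2M was the most abundant member by far on the TPM scale, which is per length. Fibroblasts held 949, 927, 2929.8 and 2449 TPM, with libraries 3 and 4 above libraries 1 and 2, the reverse of ISG15. Clone 1 held 286, 255 and 319, clone 2 277, 355, 334 and 221 and clone 3 101, 86.8, 86.3 and 164 TPM. The difference from fibroblasts was 8.88-fold (log2 -3.15 ± 0.17, adjusted p = 1.66e-11). RefSeq lists 2 B2M loci on chromosome 1, at 126837721 to 126844043 and at 126865767 to 126878501, which lie 21723 bases apart. Reads of near-identical copies may be shared between them or dropped, so the absolute level of B2M is uncertain.

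Because the fibroblast libraries differ in depth and in these levels, clones 1 to 3 were also compared with each pair alone. Against libraries 1 and 2 the log2 fold change of ISG15 was -3.37 and against libraries 3 and 4 it was -1.97. For B2M the values were -2.54 and -3.50, and for IRF9 -5.29 and -4.37. All 9 genes were lower than each pair and passed the test against each. The summed level of 10 fibroblast markers was 24000.0 to 41450.0 TPM in fibroblast libraries, 674 to 755 TPM in clone 1 and 442 to 485 TPM in clone 3. The summed level of 9 leukocyte markers was 5.64 to 12.4 TPM in fibroblasts and 73.7 to 84.4 TPM in clone 3, lower in the fibroblasts.

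**Figure D1:**
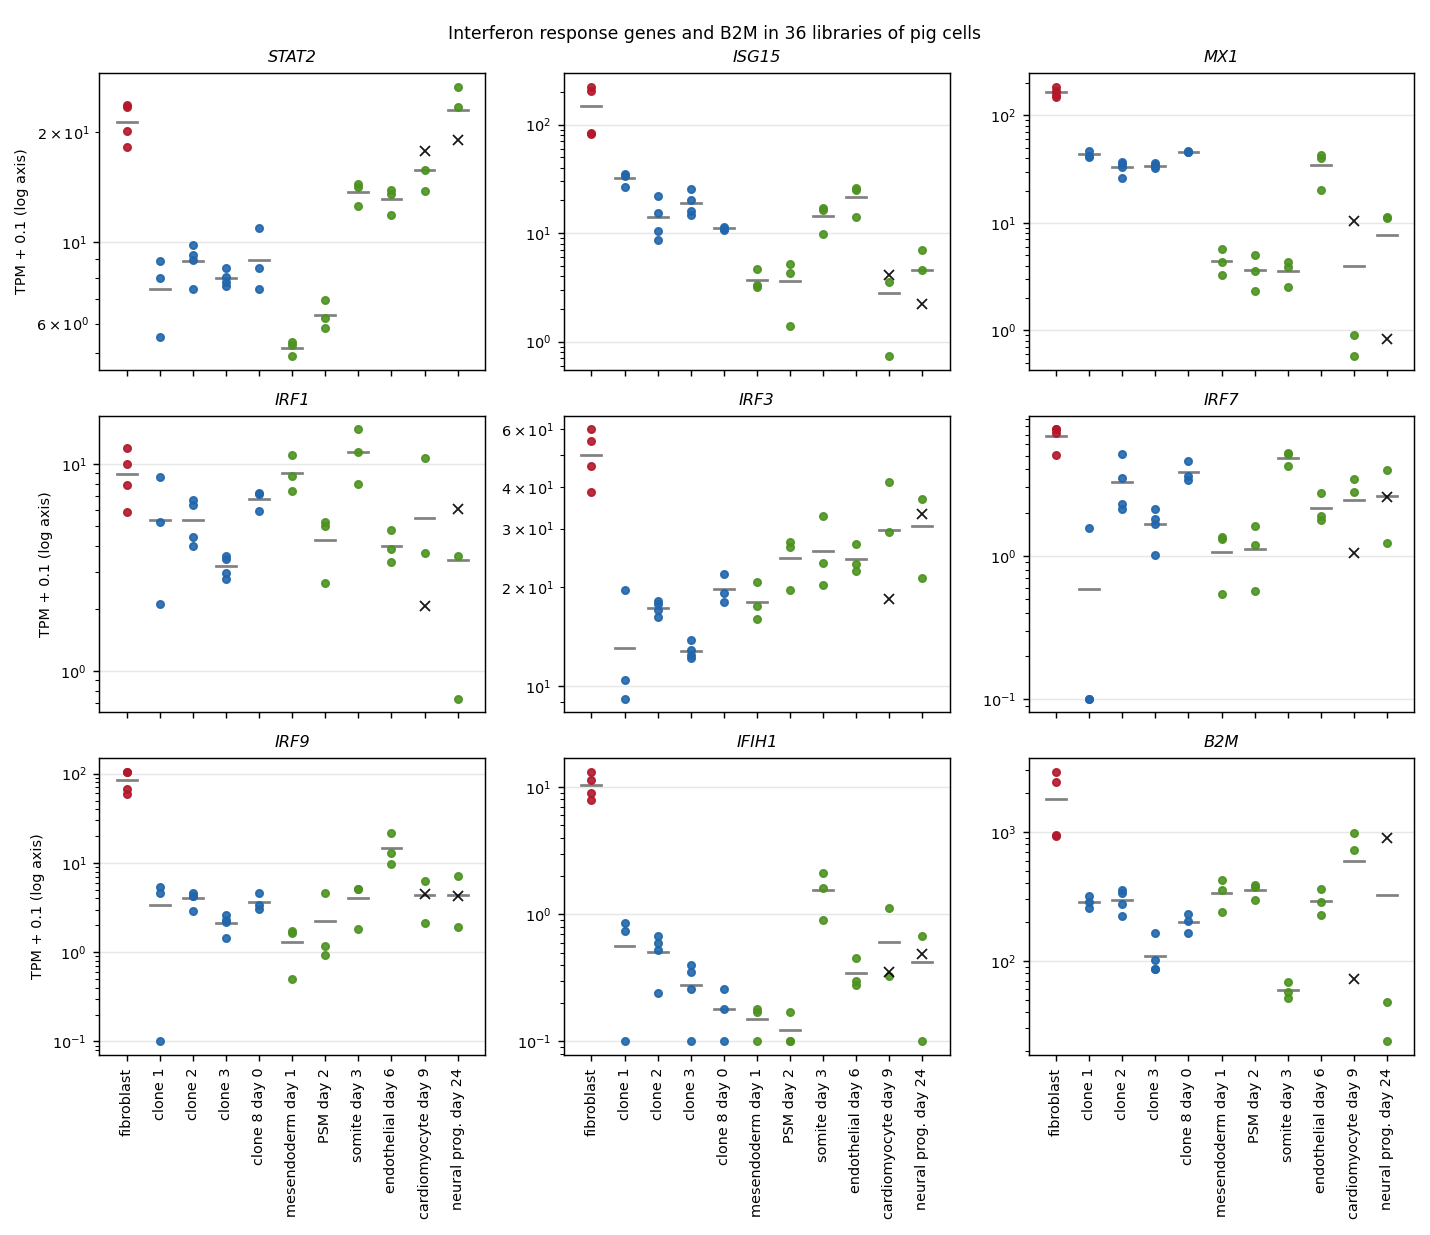
Level of each member in every library (TPM + 0.1, log axis), by group, with grey bars at group means. Red points are fibroblasts, blue points undifferentiated iPSCs and green points differentiated cells, and black crosses mark the libraries labelled cardiomyocyte 2 and neural progenitor 1. ISG15, MX1, IRF9 and IFIH1 separate the 4 fibroblast libraries from all 32 others, and B2M spreads widely among the cardiomyocyte and neural progenitor libraries.

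Undifferentiated clone 8, another line, sequenced at lower depth, was set against the same fibroblasts. Of the 9 genes, 7 were lower (background 28.2% of 14811 genes lower, 63% in either direction), with a median of -2.28 against 0.17 over all genes. These comparisons share their fibroblast libraries with those above. ISG15 stood at 11.3, 10.9 and 10.6 TPM (log2 -4.09 ± 0.49, adjusted p = 2.36e-08) and IRF9 at 2.91, 4.49 and 3.31 TPM (-5.00 ± 0.81, adjusted p = 4.71e-06). B2M stood at 164, 231 and 203 TPM (-3.65 ± 0.87, adjusted p = 0.000585) and MX1 at 45.3, 46.5 and 45.7 TPM (-2.28 ± 0.49, adjusted p = 0.000199). STAT2 (7.36, 10.8 and 8.4 TPM; -1.73 ± 0.19, adjusted p = 8.59e-09) and IRF3 (17.9, 21.7 and 19.1 TPM; -1.78 ± 0.34, adjusted p = 3.95e-05) were lower too, and IFIH1 was the seventh. With 3 counts on day 0, IFIH1 passed the low-count filter through other groups, so its place in that count is a description. IRF1 (7.11, 7.05 and 5.84 TPM) had an adjusted p of 0.179 and IRF7 (3.27, 4.49 and 3.53 TPM) one of 0.161, so neither passed.

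In each comparison between iPSC lines 1 or 2 of the 9 members passed, and each of these calls was lost in some setting given below. ISG15 was 2.57-fold higher in clone 1 than in clone 2 (log2 1.36 ± 0.39, adjusted p = 0.0387) and MX1 1.49-fold higher (0.57 ± 0.13, adjusted p = 0.0116), with no overlap of libraries for either. These were 2 of 9 members, against 9.31% of 14660 genes. B2M was lower in clone 3 than in clone 1 (1 minus 3: 1.03 ± 0.24, adjusted p = 0.0169) and than in clone 2 (2 minus 3: 1.08 ± 0.22, adjusted p = 0.00871), and was the only member past the test in either comparison, where 6.7% and 4.22% of genes passed. Clone 8 on day 0 had less ISG15 than the mean of clones 1 to 3 (log2 -1.22 ± 0.39, adjusted p = 0.0281), 1 of 9 members against 18.3% of 14811 genes. Its 3 libraries (10.6 to 11.3 TPM) lay within the range of clone 2. The ISG15 call between clones 1 and 2 was lost when clone 1 replicate 2, 3 or 4 or clone 2 replicate 1, 2 or 3 was left out (adjusted p 0.0559 to 0.104). B2M between clones 1 and 3 was lost without clone 3 replicate 2 or 3 (0.0581 to 0.0618), and ISG15 on day 0 was lost without any 1 of the day 0 libraries (0.10 to 0.112). With all 36 libraries in 1 fit, which share 1 spread, neither B2M value passed (adjusted p = 0.516 and 0.62), nor did MX1 between clones 1 and 2 (0.525). In limma on log2(TPM + 1), MX1 between clones 1 and 2 (0.0682) and ISG15 on day 0 (0.0965) did not pass.

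The rest of the pathway was read from lists ordered by role, first between clones 1 to 3 and fibroblasts. All counts of these lists stand against 35.9% of genes lower and 74.6% past the test in either direction. Genes near 0 in the clones passed the low-count filter through the fibroblasts, and genes near 0 in the fibroblasts passed it through the clones. Of those named below, IFNLR1, IRF4, PTPN6 and SOCS1 are of the second kind. The counts and the fold changes of all such genes are a description. Of 9 receptor and kinase genes, 8 were lower and 1 was higher in the clones, with a median of -2.51. IFNGR2, the second chain of the interferon gamma receptor, stood at 88.03, 88.03, 48.4 and 58.03 TPM in fibroblasts and at most 0.16 TPM in any clone library (-10.43 ± 0.39). It is such a gene, so no test is given. TYK2, a kinase of the type I receptor (-4.38 ± 0.24), and IL10RB, a chain of the interferon lambda receptor (-4.23 ± 0.70), followed. The gene that was higher was IFNLR1, the other chain of the lambda receptor, at 0.83 against 0.0075 TPM. Among 6 STAT and IRF genes outside the members, 3 were lower and 2 higher, and the median was -0.32. IRF4, a factor of lymphocytes, was among the higher (1.75 against 0 TPM).

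Of 10 sensor and adaptor genes 8 were lower and 1 was higher, TBK1, the kinase that activates IRF3 (57.3 against 23.7 TPM). Their median was -2.61. TLR3, the endosomal receptor of double-stranded RNA, stood between 4.67 and 11.5 TPM in fibroblasts and at a mean of 0.0192 TPM in the clones (-9.70 ± 0.66). It passed the low-count filter through the fibroblasts, so no test is given. Its adaptor TICAM1 (-6.85 ± 0.74) and TRIM25, a ubiquitin ligase of the RIG-I pathway (-5.66 ± 0.35), were lower too. Of 25 antiviral effector genes 19 were lower and 2 higher, with a median of -3.87. RSAD2, which encodes viperin, stood at 1.11, 4.58, 5.12 and 17.4 TPM in fibroblasts and XAF1 at 17.4, 9.59, 6.63 and 4.28 TPM. Neither had a count in the 11 clone libraries, so against a floor of 3 counts over the clones the log2 fold change was -9.87 or lower for RSAD2 and -10.06 or lower for XAF1. CMPK2, a mitochondrial nucleotide kinase, followed (-8.29 ± 0.66).

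HERC5, which in human cells is the ligase that attaches ISG15 to its targets, went the other way. It stood at 4.2, 7.91, 5.26 and 7.35 TPM in fibroblasts, and at 262, 327 and 306 TPM in clone 1, 277, 271, 281 and 253 TPM in clone 2 and 291, 262, 272 and 294 TPM in clone 3. Every clone library lay far above every fibroblast library (5.37 ± 0.19, adjusted p = 7.49e-14). The remaining enzymes of the ISG15 cycle were lower: UBA7, which activates ISG15 (0.0608 against 6.72 TPM, -7.46 ± 0.75), UBE2L6, which carries it (12.3 against 179 TPM, -3.85 ± 0.31), and USP18, which removes it (1.699 against 21.4 TPM, -4.02 ± 0.32). SAMHD1, a nucleotide hydrolase, was the other effector that was higher (49.96 against 19.7 TPM, 1.24 ± 0.12). Of 9 regulators in the list with UBA7, 6 were lower and 3 higher (median -1.45), the higher being the phosphatase genes PTPN2 and PTPN6 and the inhibitor gene SOCS1.

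Of 20 class I presentation genes 12 were lower and 4 higher, with a median of -0.93. The share past the test, 80%, was near the 74.6% of all genes. The higher were PSMB10 and the general chaperone genes CALR, CANX and PDIA3, whose products serve many proteins of the endoplasmic reticulum. PSMB8, an immunoproteasome subunit (0.404 against 10.1 TPM, -4.68 ± 0.56), SLA-2, a class I heavy chain (13.9 against 83.8 TPM, -2.72 ± 0.16), and TAP1, a peptide transporter subunit (6.05 against 35.9 TPM, -2.66 ± 0.13), were lower. SLA-1 stood at 135, 112, 120.0 and 124 TPM in fibroblasts and between 29.0 and 53.3 TPM in the clones. SLA-1, SLA-2, SLA-3 and SLA-7 were lower, while SLA-5 (adjusted p = 0.469), SLA-6 (0.401) and SLA-8 (0.946) did not pass. SLA genes resemble each other closely, so reads may be shared among them and their single values are uncertain. Of 5 genes induced by interferon gamma 4 were lower, among them the tRNA synthetase gene WARS (-2.74 ± 0.13) and the adhesion gene ICAM1 (-2.32 ± 0.17), with a median of -2.32.

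Undifferentiated clone 8 was read in the same lists, where 28.2% of all genes were lower than in fibroblasts and 63% passed in either direction. Genes near 0 on day 0 or in the fibroblasts passed the low-count filter through other groups, so these counts and their fold changes are a description too. Against fibroblasts 8 of 9 receptor and kinase genes were lower and 1 higher (median -2.85), with IFNGR2 (-9.00 ± 0.91), JAK1 (-4.73 ± 0.37) and IL10RB (-4.73 ± 1.18) lowest. Of 10 sensor genes 7 were lower (median -2.31), led by TICAM1 (-5.31 ± 1.15) and TRIM25 (-4.99 ± 0.78) among those with over 3 counts. Of 23 effector genes 18 were lower and 1 was higher, HERC5 (191, 178 and 181 TPM), with a median of -4.39. Of 18 class I genes 8 were lower and 1 was higher, PSMB10 (median -0.90), with PSMB8 (-4.23 ± 1.02), SLA-2 (-3.37 ± 0.40) and SLA-3 (-3.01 ± 0.27) lowest. That share past the test, 50%, was below the share of all genes.

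**Figure D2:**
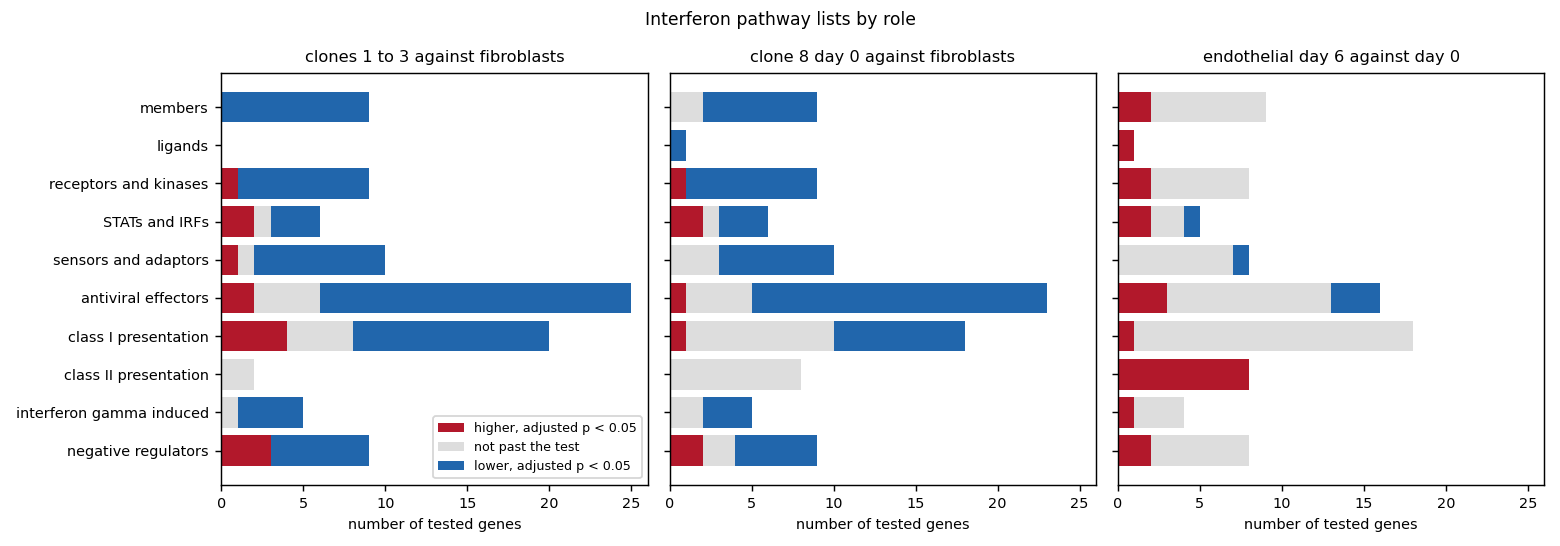
Number of tested genes of each interferon pathway list that were higher (red), lower (blue) or not past the test (grey), in 3 comparisons, on 1 shared axis. Lower calls fill most of the receptor, sensor and effector lists in undifferentiated iPSCs, and 8 of 8 class II genes are higher in endothelial cells than on day 0.

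Transcripts of the interferons themselves were scarce. IFNB1, the gene of interferon beta, had no count in any of the 36 libraries. IFNE and IFNA1 stayed at or below 0.28 TPM in every library, and IFNK stood above 0.36 TPM in 1 somite library only, at 3.27 TPM. IFNG, the gene of interferon gamma, was the ligand with most counts: fibroblast libraries held 3.67, 8.49, 0 and 0 TPM. The deeper pair held 34 and 57 counts and the shallower pair 0. Whether depth accounts for this was not tested. Endothelial libraries held 27.3, 4.77 and 11.8 TPM, from 33, 16 and 37 counts.

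The differentiated lineages stayed below the fibroblasts in most of these genes. In somite cells 7 of 9 members were lower than in fibroblasts (background 24.7% lower), in endothelial cells 9 of 9 (25.3%), in the libraries labelled cardiomyocyte 6 of 9 (26.4%) and in those labelled neural progenitor 9 of 9 (25%). No member passed the test in the other direction in these comparisons. The medians of the members were -3.29, -2.71, -1.76 and -2.72, against 0.13, 0.19, 0.29 and 0.24 over all genes. Without the libraries labelled cardiomyocyte 2 and neural progenitor 1, cardiomyocyte 1 and 3 still had 6 lower members, with B2M gained (log2 -1.21 ± 0.29, adjusted p = 0.000584; -1.76 ± 0.79, adjusted p = 0.0524 with all 3) and IRF3 lost (-0.58 ± 0.29, adjusted p = 0.0811; background 64.6% in either direction). Neural progenitor 2 and 3 still had 9 (background 62.9%). The medians of the members were then -1.25 and -4.78.

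Members ranked differently in these lineages. STAT2 lay between 11.8 and 26.5 TPM in them: somite libraries held 14.1, 12.5 and 14.4 TPM, endothelial 11.8, 13.8 and 13.4, cardiomyocyte 13.7, 17.7 and 15.7 and neural progenitor 18.9, 26.5 and 23.4 TPM. The neural progenitor libraries overlapped the fibroblasts, with a log2 fold change of -0.55 ± 0.19, adjusted p = 0.0124, and -0.69 ± 0.21, adjusted p = 0.00452 without the libraries labelled cardiomyocyte 2 and neural progenitor 1. That sign was not kept in limma on log2(TPM + 1), which gave 0.10 (adjusted p = 0.626). IRF9 and IFIH1 stayed far below: IRF9 held 5.07, 1.74 and 4.98 TPM in somite, 6.21, 4.41 and 2.05 TPM in cardiomyocyte and 4.16, 7.01 and 1.82 TPM in neural progenitor libraries. IRF9 was highest outside the fibroblasts in endothelial cells, at 21.5, 9.56 and 12.9 TPM, still 7.996-fold below them (adjusted p = 0.000799). IRF1 in endothelial and neural progenitor libraries and IRF7 in the same groups passed narrowly and lost the call when single libraries were left out. Those were endothelial replicate 1 or 2 and neural progenitor replicate 2 or 3 for IRF1 (adjusted p 0.0509 to 0.0746). For IRF7 they were endothelial replicate 2 or 3, neural progenitor replicate 2 or 3 and fibroblast replicate 1 or 2 (0.0597 to 0.152). STAT2 in neural progenitors lost it without neural progenitor replicate 3 (0.0723). Against fibroblast libraries 3 and 4 alone, none of these IRF1, IRF7 and STAT2 values passed, nor did IRF3 in cardiomyocytes (adjusted p 0.055 to 0.191). With only the compared groups in the fit, IRF3 (0.104) and STAT2 (0.0558) in cardiomyocytes and B2M (0.121), IRF1 (0.0975) and STAT2 (0.158) in neural progenitors did not pass.

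**Figure D3:**
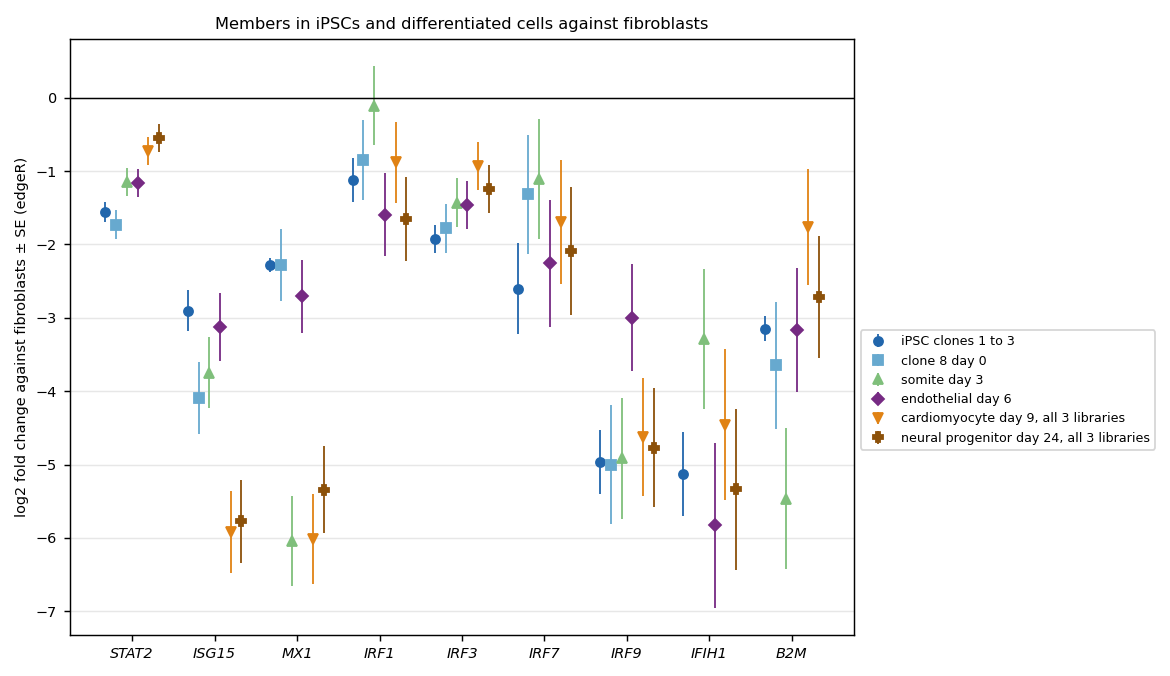
Log2 fold change of each member against fibroblasts with its SE (edgeR), for iPSC clones 1 to 3, clone 8 on day 0 and 4 differentiated groups with all their libraries, from 3 fits that share the 4 fibroblast libraries. The day 0 value of IFIH1 is left out because only 3 counts support it. STAT2 lies closest to 0 in cardiomyocyte and neural progenitor libraries, and MX1 has its lowest values in somite and cardiomyocyte libraries.

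Within clone 8, the first day of differentiation was marked by the loss of MX1. Day 0 libraries held 45.3, 46.5 and 45.7 TPM and day 1 libraries 5.61, 4.25 and 3.2 TPM, a 9.12-fold drop (log2 -3.19 ± 0.78, adjusted p = 0.012). MX1 was the only member of 9 past the test, where 12.7% of 14248 genes passed. It lost the call without mesendoderm replicate 2 or 3 (adjusted p 0.0528 to 0.0611). Without the libraries labelled cardiomyocyte 2 and neural progenitor 1, 5 members passed (background 37.4%): MX1 (-3.19 ± 0.28), IRF7 (-1.85 ± 0.51), ISG15 (-1.36 ± 0.51) and STAT2 (-0.59 ± 0.19) lower and B2M (0.96 ± 0.24) higher on day 1. The levels behind these were 3.26, 4.56 and 3.06 TPM for ISG15, 1.26, 1.2 and 0.44 TPM for IRF7, 5.16, 5.25 and 4.78 TPM for STAT2 and 241, 354 and 419.8 TPM for B2M. For none of these genes did the day 1 libraries overlap those of day 0. HERC5 stood at 34.2, 23.1 and 22.5 TPM on day 1, against 191, 178 and 181 TPM on day 0.

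From day 1 to day 2 no member passed in edgeR, in DESeq2 or in limma, and none had an unadjusted p under 0.05 in edgeR, where 7.39% of genes passed. PSM libraries held 3.45, 2.22 and 4.96 TPM of MX1, 4.18, 1.29 and 5.06 TPM of ISG15, 296, 374 and 384 TPM of B2M and 5.13, 4.92 and 2.55 TPM of IRF1. Without the libraries labelled cardiomyocyte 2 and neural progenitor 1, IRF1 was lower on day 2 (-1.13 ± 0.38, adjusted p = 0.0337; background 23.9%).

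From day 2 to day 3 the picture changed. STAT2 (0.89 ± 0.20, adjusted p = 0.00389), ISG15 (1.75 ± 0.54, adjusted p = 0.0272) and IRF7 (1.88 ± 0.63, adjusted p = 0.0398) were higher in somite cells. With IFIH1, whose tests within clone 8 are a description, they made 4 of 9 members against 12.5% of genes higher. ISG15 reached 16.2, 16.9 and 9.82 TPM and IRF7 5.02, 5.09 and 4.1 TPM, each library above all PSM libraries. IFIH1 had 1 count in the 3 PSM libraries and 37 in the 3 somite libraries (2.02, 0.81 and 1.5 TPM), a ratio of 43.3 relative to library size (95% counting interval 7.303 to 1756). Of the 21 clone 8 libraries only 3 reached 10 counts of IFIH1, with 19 and 12 counts in somite and 13 in cardiomyocyte cells, so it passed the low-count filter there through these libraries, and its tests within clone 8 are a description. B2M went the other way, to 57.6, 51.6 and 68.5 TPM, the lowest group mean of the study with all libraries in their groups, and every somite library lay below every PSM library. Its log2 fold change was -2.80 ± 1.12, adjusted p = 0.0795, and -2.81 ± 0.27, adjusted p = 1.04e-08 without the libraries labelled cardiomyocyte 2 and neural progenitor 1. In that fit IRF1 also passed, with 7.94, 14.6 and 11.3 TPM in somite cells (1.24 ± 0.39, adjusted p = 0.0105; background 48.4%). Leaving out single PSM or somite libraries ended the calls of ISG15 (PSM replicate 1 or 2, somite replicate 1 or 2; adjusted p 0.0666 to 0.115) and IRF7 (PSM replicate 1 or 2, somite replicate 1, 2 or 3; 0.0615 to 0.139). IRF7 also did not pass with all 36 libraries in 1 fit (0.141) or without the low-count filter (0.0593).

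Against day 0, somite cells thus held more STAT2 (0.61 ± 0.20, adjusted p = 0.034), more IFIH1 (19.4 times relative to library size, 95% counting interval 6.15 to 98.5) and less MX1 (4.22, 3.79 and 2.42 TPM; -3.72 ± 0.80, adjusted p = 0.00286), 3 of 9 members against 23.5%. B2M had -1.78 ± 1.08, adjusted p = 0.253 with all libraries and -1.78 ± 0.26, adjusted p = 5.96e-06 without the libraries labelled cardiomyocyte 2 and neural progenitor 1 (background 49.4%). The STAT2 call was lost without day 0 replicate 1 or 3 or any somite replicate (adjusted p 0.0709 to 0.161) and without the low-count filter (0.0868). ISG15 (16.2, 16.9 and 9.82 TPM) did not differ from day 0 by more than its error (0.38 ± 0.51, adjusted p = 0.639). So ISG15 and MX1, which had the highest correlation of any pair of members over the 11 group means (r = 0.86; 0.87 without the libraries labelled cardiomyocyte 2 and neural progenitor 1), stood apart on day 3.

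Endothelial cells on day 6 had the highest mean levels of ISG15, MX1 and IRF9 of the 6 differentiated groups. IRF9 stood at 21.5, 9.56 and 12.9 TPM, above every other library except the fibroblasts, and was 4.09-fold higher than on day 0 (log2 2.03 ± 0.67, adjusted p = 0.0428). STAT2 stood at 11.8, 13.8 and 13.4 TPM (0.58 ± 0.20, adjusted p = 0.0464). These were 2 of 9 members against 19.3% of 14248 genes, and both passed with more margin without the libraries labelled cardiomyocyte 2 and neural progenitor 1 (IRF9 2.01 ± 0.54, adjusted p = 0.00385; STAT2 0.59 ± 0.18, adjusted p = 0.0106; background 45.1%). Both calls were lost when single libraries were left out: IRF9 without any 1 of the 6 libraries (adjusted p 0.0576 to 0.147), STAT2 without day 0 replicate 1 or 3 or any endothelial replicate (0.0508 to 0.206). Without the low-count filter neither passed (IRF9 0.0574, STAT2 0.1), nor did either in limma on log2(TPM + 0.1) (0.058 and 0.0664), and with all 36 libraries in 1 fit IRF9 did not (0.058). ISG15 stood at 24.7, 13.9 and 25.9 TPM, each above day 0 (0.99 ± 0.51, adjusted p = 0.195), and MX1 at 39.7, 20.3 and 42.6 TPM (-0.40 ± 0.71, adjusted p = 0.753), so neither passed. B2M stood at 360.4, 228 and 285 TPM (0.50 ± 1.04, adjusted p = 0.79).

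Against the mean of the cardiomyocyte and neural progenitor groups, ISG15 (2.67 ± 0.45, adjusted p = 0.000224), MX1 (2.92 ± 0.61, adjusted p = 0.0015) and IRF9 (1.70 ± 0.55, adjusted p = 0.0243) were higher in endothelial cells and STAT2 was lower (-0.55 ± 0.17, adjusted p = 0.022), 4 of 9 members against 33.2%. Without the libraries labelled cardiomyocyte 2 and neural progenitor 1 the same 4 passed, with ISG15 at 2.62 ± 0.49, MX1 at 3.69 ± 0.29, IRF9 at 1.66 ± 0.50 and STAT2 at -0.54 ± 0.17, and B2M joined them at 0.67 ± 0.24, adjusted p = 0.0259 (background 49.4%). With all libraries B2M had the opposite sign (-0.94 ± 0.93, adjusted p = 0.461). The IRF9 call was lost without endothelial replicate 1 or 3 or neural progenitor replicate 3 (adjusted p 0.0501 to 0.12). The STAT2 call was lost without cardiomyocyte replicate 3, endothelial replicate 1 or 3 or neural progenitor replicate 1 (0.054 to 0.111) and without the low-count filter (0.0648). With only the compared groups in the fit, ISG15 alone passed (MX1 0.0647, IRF9 0.062, STAT2 0.122).

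Between endothelial cells and day 0, 11.6% of all genes were higher and 19.3% passed in either direction. Of the other lists, 3 of 5 STAT and IRF genes (60%) and 6 of 16 effector genes (37.5%) passed. The share was 25% for receptors and kinases (2 of 8), genes induced by interferon gamma (1 of 4) and regulators (2 of 8). Sensor genes (1 of 8, 12.5%) and class I genes (1 of 18, 5.56%) lay below the share of all genes. IFNAR1 (27.7 against 6.21 TPM, 2.15 ± 0.30) and IFNAR2 (37.4 against 13.1 TPM, 1.54 ± 0.21), the chains of the type I receptor, were the 2 of 8 receptor and kinase genes past the test. IFNAR1 was higher than on day 0 in cardiomyocyte (3.24 ± 0.32; 2.84 ± 0.24 without the libraries labelled cardiomyocyte 2 and neural progenitor 1) and neural progenitor libraries (3.76 ± 0.32; 3.88 ± 0.25) too. It was lower in endothelial cells than in the mean of those groups (-1.35 ± 0.27, adjusted p = 0.000955; -1.20 ± 0.20), while IFNAR2 was higher (0.97 ± 0.17, adjusted p = 0.000335; 0.93 ± 0.17). IRF2 was higher as well (1.22 ± 0.32). Among 16 effector genes 3 were higher and 3 lower (median 0.81, against 0.03 over all genes). IFI44L (5.57 against 0.353 TPM) and IFI44 (10.7 against 0.133 TPM, from 2 counts on day 0) were among the higher. IFI44, with 139 counts in endothelial libraries, passed the low-count filter in clone 8 through them. Its place in the effector counts given here is therefore a description. HERC5 fell from 191, 178 and 181 to 3.82, 2.49 and 4.98 TPM (-5.58 ± 0.47, adjusted p = 4.85e-07). Of 18 class I genes only SLA-1 passed, at 66.5, 53.9 and 58.7 TPM against 16.3, 13.7 and 28.8 TPM (1.49 ± 0.31, adjusted p = 0.00265). Among sensor genes DDX58, which encodes RIG-I, was lower (-0.76 ± 0.26), and among regulators SOCS3 (1.96 ± 0.49) and PIAS1 (1.12 ± 0.20) were higher. Without the libraries labelled cardiomyocyte 2 and neural progenitor 1, 7 of 17 effector genes were higher and 3 lower, and 4 of 18 class I genes were higher and 4 lower, so 58.8% and 44.4% passed against 45.1% of all genes. In that fit 75% of receptor and kinase genes, 66.7% of STAT and IRF genes and 50% of genes induced by interferon gamma passed. For regulators and sensors the shares were 33.3% and 20%.

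The list with all its genes past the test in endothelial cells was that of MHC class II, whose molecules show peptides to helper T cells and whose genes need the activator CIITA, a target of interferon gamma. All 8 of 8 tested genes were higher than on day 0, where 11.6% of all genes were, and 8 of 8 were without the libraries labelled cardiomyocyte 2 and neural progenitor 1. Among clones 1 to 3 and fibroblasts only 2 of these genes passed the filter on low counts, so they passed it in clone 8 largely through the endothelial libraries, and the count is a description. CIITA stood at 2.06, 3.64 and 3.35 TPM against 0, 0.08 and 0.07 TPM (5.30 ± 1.23). CD74, the invariant chain, stood at 48.3, 69.5 and 57.9 TPM against 1.22, 0.62 and 0.41 TPM (6.95 ± 0.95). SLA-DQA1 stood at 73.4, 82.02 and 64.2 TPM, from 2 counts on day 0. SLA-DRA (4.1, 10.7 and 4.21 TPM) and SLA-DRB1 (6.12, 7.71 and 6.49 TPM) had no count on day 0, so their log2 levels were at least 5.17 and 5.12 higher against a floor of 3 counts over the day 0 group. The median of the list was 7.19, and 5.23 with such genes at that floor. IFNG had no count on day 0 and stood at 27.3, 4.77 and 11.8 TPM in endothelial cells, at least 4.98 higher on the log2 scale against the same floor. It too passed the low-count filter in clone 8 through the endothelial libraries, so no test is given. IFNGR2, the receptor chain it needs, stayed at 0, 0.11 and 0.23 TPM.

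Leukocytes express class II genes and IFNG, so their markers were read beside these values. The 9 leukocyte markers summed to 18.5 to 29.1 TPM in endothelial libraries and to 18.5 to 29.7 TPM on day 0, with CD3E at 0 in both groups and PTPRC, which encodes CD45, at 0, 0.04 and 0 TPM in endothelial libraries. The 8 endothelial markers summed to 603 to 688 TPM there and to 6.32 to 11.3 TPM on day 0. The 10 fibroblast markers summed to 1545 to 1983 TPM in endothelial libraries and to 422.6 to 652.1 TPM on day 0. For the 8 pluripotent markers the sums were 713.5 to 832.8 TPM in endothelial libraries and 3643 to 3733 TPM on day 0. The part that other cells play in these values was not tested.

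**Figure D4:**
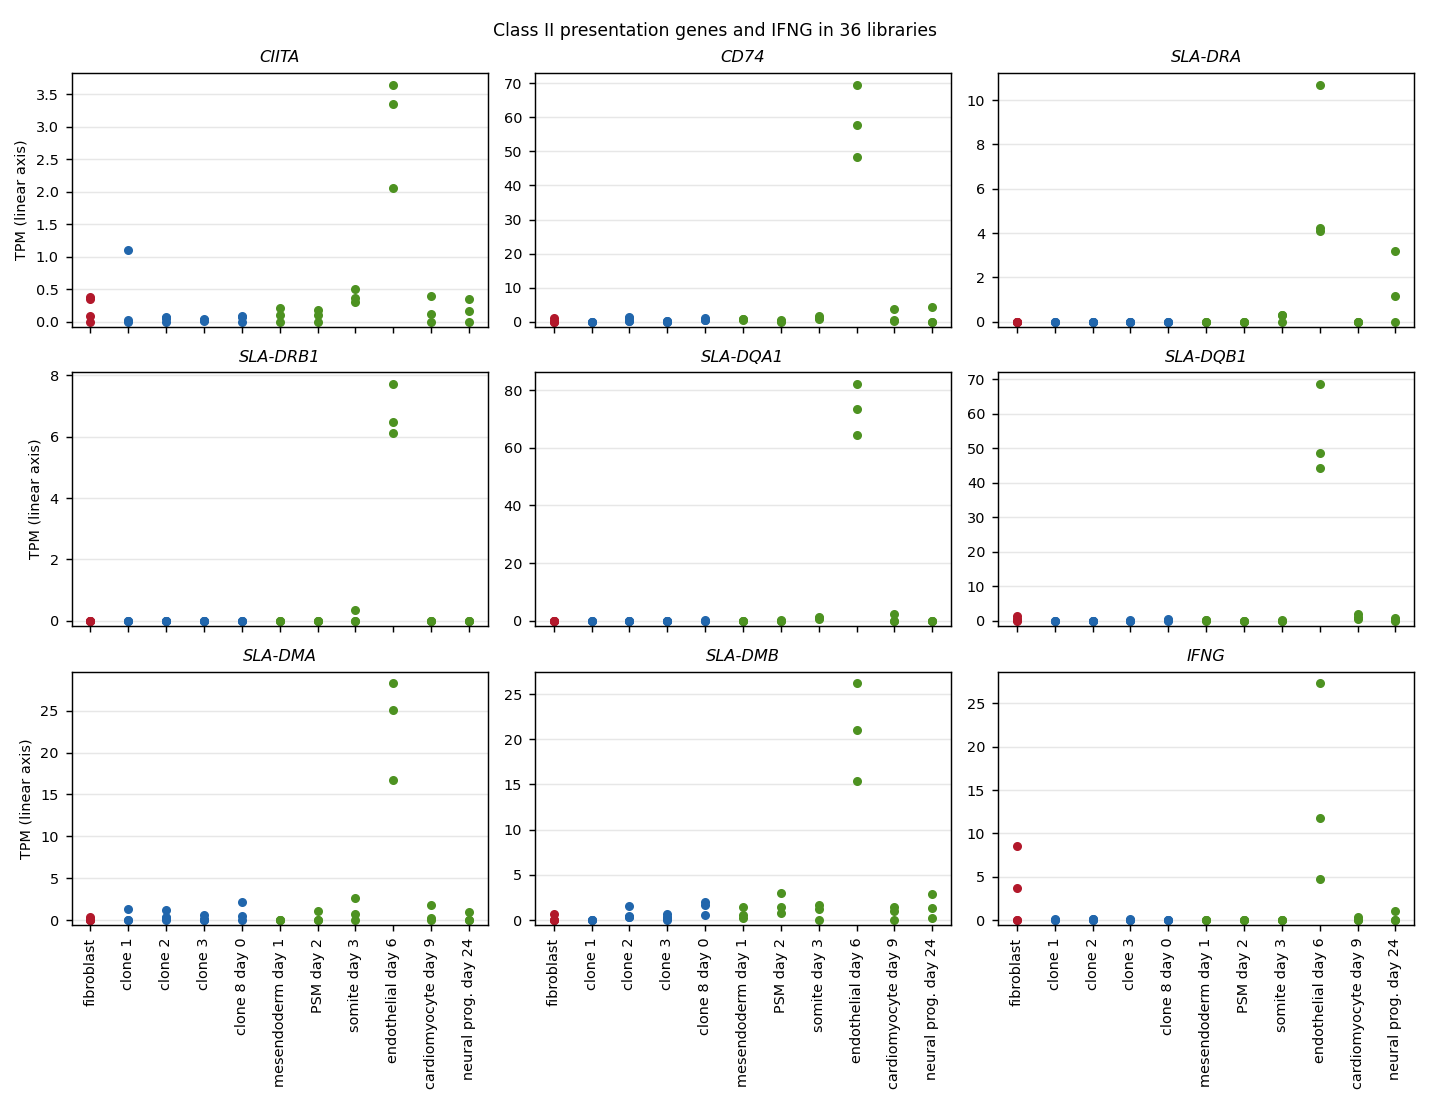
Level of 8 class II presentation genes and of IFNG in every library (TPM, linear axis), by group, 1 point per library. The 3 endothelial libraries lie above all 33 others for each of the 8 class II genes, and the deeper pair of fibroblast libraries holds IFNG at 3.67 and 8.49 TPM.

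The groups labelled cardiomyocyte and neural progenitor combined low ISG15 and MX1 with STAT2 above day 0. Cardiomyocyte libraries 1 to 3 held 0.63, 3.99 and 3.47 TPM of ISG15 and 0.81, 10.3 and 0.47 TPM of MX1. Neural progenitor libraries 1 to 3 held 2.11, 4.44 and 6.93 TPM of ISG15 and 0.73, 11.2 and 10.9 TPM of MX1. Against day 0 the cardiomyocyte group had less ISG15 (-1.78 ± 0.55, adjusted p = 0.0164) and MX1 (-3.68 ± 0.80, adjusted p = 0.00162) and more STAT2 (1.04 ± 0.20, adjusted p = 0.000559) and IFIH1 (8.32 times relative to library size, 95% counting interval 2.41 to 44.3), 4 of 9 members against 41.7%. That count includes IFIH1, which passed the low-count filter through somite and cardiomyocyte libraries, so its test is a description. The neural progenitor group had less ISG15 (-1.58 ± 0.56, adjusted p = 0.0312) and MX1 (-2.97 ± 0.78, adjusted p = 0.00604) and more STAT2 (1.23 ± 0.20, adjusted p = 0.000123), 3 of 9 against 42.7%. The IFIH1 call was lost without cardiomyocyte replicate 3 or without day 0 replicate 1 or 3 (adjusted p 0.0913 to 0.29) and the cardiomyocyte ISG15 call without cardiomyocyte replicate 1 (0.0518). The neural ISG15 call was lost without any 1 of the day 0 libraries or without neural progenitor replicate 1 or 2 (0.0536 to 0.0853) and in limma on log2(TPM + 0.1) (0.0748). IFIH1 in cardiomyocytes also did not pass with all 36 libraries in 1 fit (0.0531) or in limma on log2(TPM + 1) (0.146), and ISG15 there did not with only the compared groups in the fit (0.0732).

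Within these groups MX1 and B2M divided along the cell markers and not along the labels. MX1 stood at 0.81, 0.47 and 0.73 TPM in cardiomyocyte 1, cardiomyocyte 3 and the library labelled neural progenitor 1, the libraries with cardiac markers. It stood at 11.2, 10.9 and 10.3 TPM in neural progenitor 2, neural progenitor 3 and the library labelled cardiomyocyte 2, those with neural markers. B2M split the other way, at 721, 986 and 894 TPM in the first 3 and at 47.6, 23.6 and 71.6 TPM in the other 3. STAT2 was lower in the first 3 (13.7, 15.7 and 18.9 TPM) than in neural progenitor 2 and 3 (26.5 and 23.4 TPM), and the library labelled cardiomyocyte 2, at 17.7 TPM, lay within the range of the first 3. No test was run on this division, since it comes from the measured markers. The summed level of 10 fibroblast markers was also higher in the first 3 than in the other 3. It was 4515, 866 and 3269 TPM in cardiomyocyte 1 to 3 and 4482, 1180.0 and 881 TPM in neural progenitor 1 to 3. Within each set of 3 the summed level and B2M were in different orders, but 3 libraries are too few to read anything from an order. The part of the summed level in the B2M levels was not tested.

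Leaving out the libraries labelled cardiomyocyte 2 and neural progenitor 1 changed several results. Against day 0, cardiomyocyte 1 and 3 had more B2M (2.47 ± 0.26, adjusted p = 2.76e-08; 1.92 ± 1.07, adjusted p = 0.157 with all 3), more IRF3 (1.24 ± 0.26, adjusted p = 0.000255; 0.89 ± 0.38, adjusted p = 0.0669) and a larger deficit of MX1 (-5.78 ± 0.43), with STAT2 at 1.15 ± 0.20, ISG15 at -1.83 ± 0.64 and IFIH1 at 3.30 ± 1.02 and 61.7% of genes past the test. Neural progenitor 2 and 3 had less B2M than day 0 (-2.81 ± 0.34, adjusted p = 2.34e-07), whereas all 3 libraries gave the opposite sign (0.97 ± 1.04, adjusted p = 0.471). They also had less IRF1 (-1.72 ± 0.52, adjusted p = 0.00608), and ISG15 no longer passed (-1.44 ± 0.65, adjusted p = 0.0559; background 63.8%). MX1 (-2.42 ± 0.32) and STAT2 (1.11 ± 0.20) still did. Against fibroblasts the difference of B2M in neural progenitors went from -2.72 ± 0.83 to -6.55 ± 0.42.

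**Figure D5:**
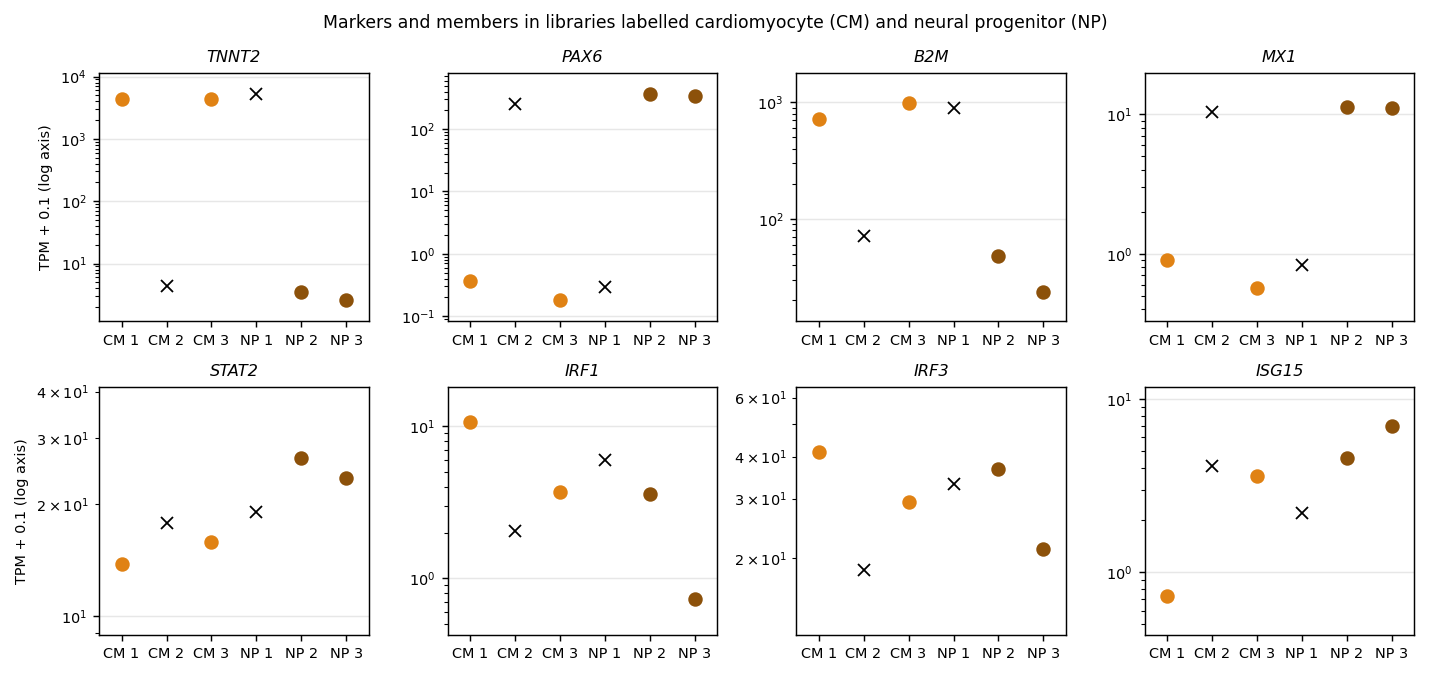
Level of the cardiac marker TNNT2, the neural marker PAX6 and 6 members in each library labelled cardiomyocyte (CM) or neural progenitor (NP), as TPM + 0.1 on log axes, with crosses for CM 2 and NP 1. CM 2 sits with NP 2 and NP 3 for PAX6, B2M and MX1, and NP 1 sits with CM 1 and CM 3.

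Over all 11 groups, fibroblasts had the highest mean of ISG15, MX1, IRF3, IRF7, IRF9, IFIH1 and B2M, neural progenitors that of STAT2 and somite cells that of IRF1. The lowest means were those of mesendoderm for STAT2 (5.06 ± 0.249 TPM, SD, n = 3) and IRF9 (1.2 ± 0.695 TPM), of cardiomyocytes for ISG15 (2.697 ± 1.81 TPM), of somite cells for MX1 (3.48 ± 0.94 TPM) and B2M (59.2 ± 8.56 TPM), of clone 3 for IRF1 and IRF3 (12.7 ± 0.731 TPM, n = 4), of clone 1 for IRF7 (0.483 ± 0.837 TPM) and of PSM for IFIH1 (0.0233 ± 0.0404 TPM). Cardiomyocyte 1 and 3 lay below all somite libraries in MX1 (0.81 and 0.47 TPM), and neural progenitor 2 and 3 below them in B2M (47.6 and 23.6 TPM). Most neighbours in these orders were not separated: of 10 neighbouring pairs the libraries overlapped in 7 for STAT2, ISG15 and B2M, 8 for MX1, IRF3 and IRF9, 9 for IFIH1 and all 10 for IRF1 and IRF7. Pairs of members correlated over the 11 group means of log2(TPM + 1) with r from -0.06 to 0.86 and above 0 in 35 of 36 pairs. Without the fibroblast group 20 of 36 pairs were above 0 and the median r went from 0.49 to 0.07, so the shared pattern rests largely on the fibroblasts. Leaving out the libraries labelled cardiomyocyte 2 and neural progenitor 1, 32 of 36 pairs were above 0 (median r 0.42), and 19 without the fibroblast group (median r 0.05). Each iPSC clone is a single line and all clone 8 groups share a line, so r is given as a description.

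The genes most like each member over the 11 group means (Pearson r of log2(TPM + 1) among 11049 genes with at least 10 TPM in a group) were partly other interferon-stimulated genes. The closest to IRF9 was IFIT3 (r = 0.99), an antiviral gene of the IFIT family, followed by EMP1 (0.98) and DPYD (0.98). The closest to IFIH1 was IFIT1 (0.98), of the same family, with NOV and ADRA1B (0.98 and 0.98) next. For MX1 they were VEGFC, a growth factor gene of lymphatic vessels (0.98), HERC6 (0.96) and TAP2, the partner of TAP1 (0.95). For ISG15 they were C2CD2 (0.96), LAMC1 (0.95) and STAT6 (0.95), and for STAT2 RASAL2 (0.99), MAP1A (0.98) and GAB2 (0.97). IRF3 was closest to RNF181 (0.98), UGP2 (0.97) and DDIT3 (0.97). IRF7 had NFE2L2 (0.93), DUSP14 and HERPUD2, B2M had ANTXR1 (0.92), ANKRD29 and IGFBP4, and IRF1 had SPSB1 (0.87), PSEN2 and PDE5A. Over the 9 groups other than cardiomyocyte and neural progenitor, the r of the first gene named for each member ranged from 0.92 to 0.99. Many genes that are high in fibroblasts share this shape, so a high r is common among them.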

How the data were processed

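RNA was extracted with an RNeasy Plus kit and sequenced after a ligation-mediated library preparation, per the labels' protocols. Per the submitters' processing notes, bcl2fastq, Bowtie 1.2.3 and RSEM 1.2.3 were used with the genome build Sscrofa11.1. Neither the annotation nor any use of strand is given in the sources used here, and reads from overlapping or antisense genes may therefore be shared. The authors deposited 1 table of estimated counts per gene, not normalized, and 1 table of TPM, which the authors scaled to gene length and to the same total in each library. Each holds 20683 genes and 36 libraries, and library sets were not normalized against each other beyond this.

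Estimated counts were rounded to whole numbers (mean change 0.00661%) and tested in edgeR 4.0.16 (R 4.3.3) by its quasi-likelihood test (TMM scaling, filterByExpr with a minimum count of 10, group only). P-values were adjusted by Benjamini-Hochberg over all genes of a fit, at 0.05. Fibroblasts and clones 1 to 3 (15 libraries), clone 8 (21 libraries) and, for comparisons across them, all 36 libraries were fitted separately, giving 18 comparisons. Values given as log2 with ± are fold changes with their SE. Levels are TPM, as mean ± SD where so marked. Alternatives were DESeq2 1.42.0, RLE scaling, no filter, limma 3.58.1 on log2(TPM + 1) or log2(TPM + 0.1), a replicate block, other choices of libraries and single libraries left out. The fits without the libraries labelled cardiomyocyte 2 and neural progenitor 1 were chosen after seeing the data for the 9 comparisons that do not involve those groups and for the correlations between members. Intervals of counts are exact 95% intervals, and a group at 0 was set to a floor of 3 counts. The main edgeR fit, DESeq2 and limma on log2(TPM + 1) were tested on simulated data, in 1 comparison per set of libraries. The other settings were not. Python 3.11.15, pandas 2.3.3 and numpy 2.4.6 served for levels and figures.

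The members and the gene and marker lists were chosen with earlier results of these data known. Genes named from a list are the 3 with the largest change among those past the test with at least 5 TPM in the higher group. The SLA class I genes and the ligands are given whatever they did. HERC5 in iPSCs, IFNLR1, IRF4, TBK1, SAMHD1, PSMB10, CALR, CANX, PDIA3, PTPN2, PTPN6, SOCS1, CIITA and CD74 were named after their values were seen. IFNL1, IFNL3, IFNW1, IFIT5 and GBP5 were not analysed here, and some genes of the lists are not reported here by name. Positions come from RefSeq (Sscrofa11.1), where all 9 members matched by symbol.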

Additional observations from a re-analysis of the deposited data

Results flagged for a closer look

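For ISG15, MX1 and B2M the difference from the shared fibroblasts was not the same in every iPSC line in the main fits. This was tested directly between lines (edgeR's quasi-likelihood test, adjusted over all genes). ISG15 differed between clones 1 and 2 by a log2 fold change of 1.36 ± 0.39 and MX1 by 0.57 ± 0.13, both higher in 3 of 3 clone 1 libraries than in any clone 2 library. B2M was higher than in clone 3 by 1.03 ± 0.24 in clone 1 and by 1.08 ± 0.22 in clone 2, with clone 3 lowest in 4 of 4 libraries. With all 36 libraries in 1 fit neither B2M difference passed (adjusted p = 0.516 and 0.62), nor did that of MX1 (0.525). ISG15 on day 0 of clone 8 differed from the mean of clones 1 to 3 by -1.22 ± 0.39. That call was lost without any 1 of the day 0 libraries and in limma on log2(TPM + 1). The ISG15 call between clones 1 and 2 was lost without any 1 of the clone 1 libraries or most single clone 2 libraries. The fibroblasts, clone 2 and clone 3 have 4 libraries each, and no member had a library far from the other 3 in these groups (0 of 27).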

How the results depend on the processing

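Of the 9 members, all 9 were lower in clones 1 to 3 than in fibroblasts under each alternative run for that comparison, single libraries left out included (9 to 9 members). The number of genes past the adjusted p of 0.05 moved by over 1.5 times, or the number of members moved likewise, in these cases. Between clones, the main numbers of genes were 1365 between clones 1 and 2, 982 between clones 1 and 3 and 618 between clones 2 and 3, with 2, 1 and 1 members. In the other comparisons they were 2715 between day 0 and clones 1 to 3, 1808 between day 1 and day 0, 1053 between day 2 and day 1, 3374 between day 3 and day 2, 3346 between somite cells and day 0, 2752 between endothelial cells and day 0, 5940 between cardiomyocytes and day 0, 6087 between neural progenitors and day 0, 4737 between endothelial cells and the cardiac and neural mean, 9375 between cardiomyocytes and fibroblasts and 8922 between neural progenitors and fibroblasts, with 1, 1, 0, 4, 3, 2, 4, 3, 4, 6 and 9 members in turn.

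With all 36 libraries in the fit, genes numbered 909 between clones 1 and 2, 620 between clones 1 and 3 and 347 between clones 2 and 3, and members numbered 1 between clones 1 and 2, 0 between clones 1 and 3, 0 between clones 2 and 3 and 1 between endothelial cells and day 0. With DESeq2, genes numbered 2288 between clones 1 and 2, 1917 between clones 1 and 3, 1270 between clones 2 and 3 and 1652 between day 2 and day 1, and members numbered 2 between clones 1 and 3 and 4 between day 1 and day 0. With only the compared groups in the fit, genes numbered 2561 between clones 2 and 3, 5476 between day 0 and clones 1 to 3, 5868 between cardiomyocytes and fibroblasts, 5292 between neural progenitors and fibroblasts, 4752 between day 1 and day 0, 2165 between day 2 and day 1, 6421 between day 3 and day 2, 7706 between somite cells and day 0, 7704 between endothelial cells and day 0, 3764 between cardiomyocytes and day 0, 3476 between neural progenitors and day 0 and 1832 between endothelial cells and the cardiac and neural mean, and members numbered 2 between day 0 and clones 1 to 3, 4 between day 1 and day 0, 1 between day 2 and day 1, 6 between endothelial cells and day 0, 2 between cardiomyocytes and day 0 and 1 between endothelial cells and the cardiac and neural mean. Without the libraries labelled cardiomyocyte 2 and neural progenitor 1, genes numbered 4888 between day 0 and clones 1 to 3, 5415 between day 1 and day 0, 3460 between day 2 and day 1, 7011 between day 3 and day 2, 7160 between somite cells and day 0, 6532 between endothelial cells and day 0, 8934 between cardiomyocytes and day 0, 9236 between neural progenitors and day 0 and 7162 between endothelial cells and the cardiac and neural mean, and members numbered 5 between day 1 and day 0 and 1 between day 2 and day 1. With limma on log2(TPM + 1), genes numbered 1046 between clones 2 and 3, and members numbered 3 between day 1 and day 0 and 1 between endothelial cells and day 0. Without its filter on low values, genes numbered 1041 between clones 2 and 3, and members numbered 1 between clones 1 and 2, 3 between day 1 and day 0 and 1 between endothelial cells and day 0. With limma on log2(TPM + 0.1), members numbered 2 between clones 1 and 3, 3 between day 1 and day 0 and 0 between endothelial cells and day 0. Without the filter on low counts, members numbered 0 between endothelial cells and day 0.

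Leaving out single libraries gave 643 to 1757 genes and 1 to 2 members between clones 1 and 2, 435 to 1332 genes and 0 to 2 members between clones 1 and 3, 330 to 549 genes between clones 2 and 3, 1488 to 2913 genes and 0 to 2 members between day 0 and clones 1 to 3, 996 to 1595 genes and 0 to 1 members between day 1 and day 0, 526 to 693 genes between day 2 and day 1, 2212 to 2727 genes and 2 to 4 members between day 3 and day 2, 1789 to 1970 genes and 0 to 1 members between endothelial cells and day 0 and 3146 to 6076 genes and 2 to 4 members between endothelial cells and the cardiac and neural mean. The libraries that ended a call of a member are named with it in the report.

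Of 87 differences of members followed through the settings, 3 changed sign. STAT2 between neural progenitors and fibroblasts had 0.10, 0.10 and 0.10 in the limma settings. B2M between neural progenitors and day 0 had -0.96, -0.96 and -0.98 in those settings, -2.94 without neural progenitor replicate 1 and -2.81 also without cardiomyocyte replicate 2. B2M between endothelial cells and the cardiac and neural mean had 0.56, 0.56 and 0.57, then 1.01 and 0.67. Over all single libraries left out, B2M ranged from -2.94 to 1.5 in the first of these comparisons and from -1.26 to 1.01 in the second. The cause of the limma values was not tested. Among the other differences of members, which passed no test, leaving out these libraries turned IRF7 between cardiomyocytes and day 0 from -0.34 to 0.10 and ISG15 between day 2 and day 1 from -0.018 to 0.030.

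Shares of calls that were higher lay within 10 percentage points of each other under TMM, RLE and DESeq2 scaling. On the TPM scale the share of calls that were higher differed from the count fit: 48% and 22.3% between clones 1 and 2, 48.9% and 80.3% between clones 2 and 3, 55.2% and 65.5% between day 0 and fibroblasts, 51.4% and 80.8% between day 0 and clones 1 to 3, 55.4% and 69% between somite cells and fibroblasts, 56.5% and 68.4% between endothelial cells and fibroblasts, 58.5% and 71.5% between neural progenitors and fibroblasts, 43.6% and 27.9% between day 1 and day 0, 52.8% and 63.5% between day 3 and day 2 and 54.9% and 38.2% between cardiomyocytes and day 0 (count fit first). The median log2 difference of all genes reached 0.55 on that scale, between neural progenitors and fibroblasts, against 0.24 in the count fit.

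Replicate numbers did not pair the libraries. Deviations of same-numbered libraries correlated with r from -0.124 to 0.0759 among fibroblasts and clones 1 to 3, and 12 of 63 such pairs in clone 8 were above 0.1. With the replicate number as a block, members past the test numbered 1 between clones 1 and 2 and 0 between endothelial cells and day 0. No other number of genes or members moved by over 1.5 times under the block. The low depth of clone 8 limits IFIH1 most.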
